A study of Homo sapiens with 23 samples.

Results

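The comparison of c-JUN knockout with wild type at day 30 rested on 4 of the 23 samples of the series, all of them RNA-seq libraries from thalamus organoids (ThOs), stem cell cultures grown as free aggregates and patterned towards the thalamus. The WT group held 2 libraries from unedited H1, a human embryonic stem cell line. The KO group held 2 libraries from H1 cells whose c-JUN gene (symbol JUN) had been targeted with CRISPR/Cas9. Both groups went through the same culture. Inhibitors of BMP and TGF-beta receptors came first, then a thalamus patterning medium with BMP7 and the MEK inhibitor PD325901. A neural differentiation medium, listed without BMP7 or PD325901, followed. Neither group carried an added transgene. Each library was made from 3 pooled ThOs, and the labels do not say which knockout clone a KO library came from, so clone and replicate cannot be told apart. Members were chosen by their labels (genotype and day), and all 9497 genes listed for every library were compared. The other RNA-seq libraries, those of day 25 and those of the knockout with c-JUN expressed again (OE), served only to estimate the spread and for the comparison with day 25.

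c-JUN is a leucine zipper protein that pairs with other JUN, FOS or ATF proteins to form AP-1, a transcription factor that binds a short palindromic DNA element. JNK and ERK, kinases of the MAP kinase cascades, raise its activity. The thalamus develops in the caudal diencephalon under WNT, BMP and FGF signals released by neighbouring organisers, among them the dorsal midline, or roof plate, which also gives rise to the choroid plexus.

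The targeted gene was examined first. The JUN value was 128 and 162 in the WT libraries and 222 and 248 in the libraries labelled KO, in the order of replicate 1 and replicate 2. Both libraries labelled KO therefore lay above both WT libraries, against the direction that the label would give. The difference was 0.70 ± 0.32 (log2, SE; limma adjusted p = 0.643), and the exact two-sided permutation test of 2 against 2 libraries gave p = 0.333, the smallest value this design allows. The JUN value of the day 25 libraries was 139 and 153 in WT and 353 and 196 in KO, also higher in KO. In its knockout clones the study reported no c-JUN protein by western blot. It also reported no c-JUN mRNA by quantitative PCR during neural induction and in cerebral organoids. For ThOs of day 25 it reported, from ATAC-seq (a measure of chromatin accessibility), that c-JUN was less accessible in KO than in WT and OE. Where in JUN the edit lies is not given in the labels, and a value per gene does not show whether its transcript still encodes the protein.

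JUN is itself preceded by an AP-1-like element, and its promoter is shown for that reason together with that of CXCL14, a chemokine gene whose values were at least 2-fold lower in both KO libraries than in both WT libraries. Both are RefSeq sequences on GRCh38.p14, the 250 bases upstream of the start site on the minus strand, at chr1:58784048-58784297 and chr5:135578992-135579241. Capitals mark the element, TGACATCA in JUN and a match to TGANTCA in CXCL14.
JUN: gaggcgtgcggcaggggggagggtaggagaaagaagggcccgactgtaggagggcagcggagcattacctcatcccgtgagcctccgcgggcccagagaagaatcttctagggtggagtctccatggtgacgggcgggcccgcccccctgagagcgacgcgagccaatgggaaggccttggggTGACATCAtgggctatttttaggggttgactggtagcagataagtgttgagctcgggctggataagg
CXCL14: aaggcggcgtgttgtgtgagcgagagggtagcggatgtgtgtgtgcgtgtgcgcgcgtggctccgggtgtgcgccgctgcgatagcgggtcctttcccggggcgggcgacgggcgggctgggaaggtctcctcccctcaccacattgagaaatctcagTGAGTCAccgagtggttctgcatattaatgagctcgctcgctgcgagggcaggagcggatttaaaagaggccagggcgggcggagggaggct
In windows of 300 bases, from 250 before to 50 after each start site and searched on both strands, TGANTCA was present for 516 of 7817 analysed genes with a listed promoter (6.6%) and TGACATCA for 178 (2.28%). Of the genes that were at least 2-fold apart with no overlap between KO and WT libraries, 13 of 125 of the higher (10.4%) and 7 of 133 of the lower (5.26%) held TGANTCA, and among the 20 genes with the largest differences, 13 of which had a listed promoter, none did. A match describes these letters only.

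The deposited values are normalised whole numbers with nearly the same distribution in all libraries (11 to 9910, median 106), and the depth behind them is unknown. Values of 1000 or more, 178 genes in each day 30 library, fall on 18 narrow steps more than 2% apart, of which the highest is at 9910 and the next ends at 3456, so equal values of this size do not show equal levels. The 2 KO libraries were first compared with each other and with WT, since they differed widely. Between WT replicates, 1.75% of genes were at least 2-fold apart. Between KO replicate 1 and WT replicate 1 the share was 1.76%, and between KO replicate 1 and WT replicate 2 it was 3.24%. KO replicate 2 differed from every other day 30 library considered, with 21.5% of genes at least 2-fold apart from KO replicate 1 (926 higher in replicate 2, 9.75%, and 1119 lower, 11.8%), 21.2% from WT replicate 1 and 23.6% from WT replicate 2. The other replicate pairs ranged from 2.15% (OE, day 25) to 17.4% (KO, day 25).

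**Figure D1:**
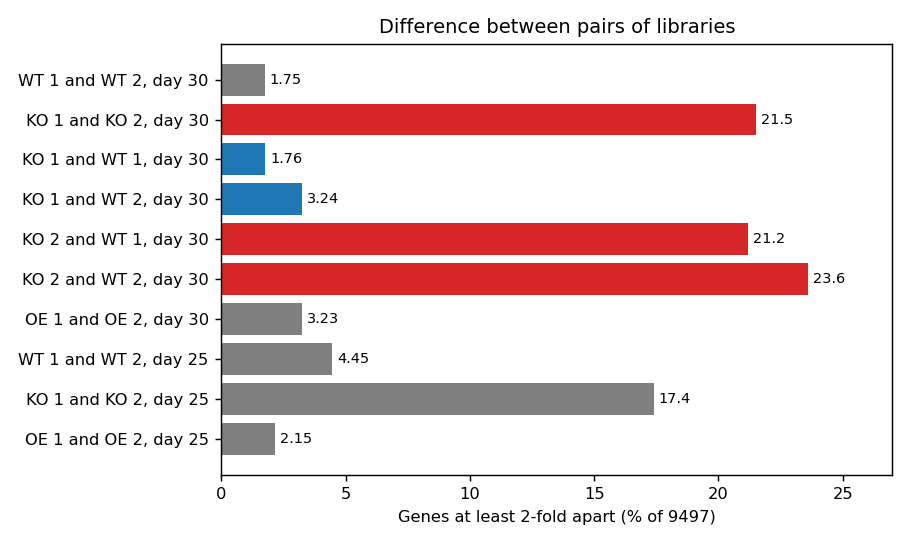
Share of the 9497 genes at least 2-fold apart (percent, bars from 0) for pairs of libraries; red bars hold KO replicate 2 of day 30, blue bars KO replicate 1 of day 30 against WT, grey bars replicate pairs. Every red bar is over 21% and both blue bars are under 3.3%.

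KO replicate 2 also stood alone among all 12 libraries. It was the lowest library by at least 2-fold for 342 genes and the highest for 129, whereas KO replicate 1 was the lowest for 1 gene and the highest for 2. No other library exceeded 90 and 49. Its differences from WT moved with the level of the genes: in 5 bins of about 1900 genes by mean value, the median difference of KO replicate 2 from the WT mean was 0.40 on the log2 scale in the lowest bin and -0.12 in the highest, against 0.01 and -0.01 for KO replicate 1. The part of depth, RNA quality or clone in this was not tested.

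No gene passed an adjusted p under 0.05 together with a 2-fold difference between KO and WT in the limma fit (0 of 9497, 0%), and 279 genes (2.94%) passed the same fold at an unadjusted p under 0.05, 134 higher in KO (1.41%) and 145 lower (1.53%). At any fold, 699 genes had an unadjusted p under 0.05 (7.36%). The lowest adjusted p was 0.171, for DPY19L1. Without KO replicate 1 the adjusted count was 1078, and without KO replicate 2 it was 1, the gene ZIC1. A difference is therefore described below by where the libraries lay, and none of the genes named passed the adjusted test in the fit of all libraries. P-values measure the spread between libraries, which the labels do not tie to separate differentiations.

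Without a test, 314 genes (3.31%) were at least 2-fold apart between group means with no overlap between the KO and WT libraries, 153 higher (1.61%) and 161 lower (1.7%). Taken singly, KO replicate 1 was at least 2-fold from the WT mean for 151 genes (1.59%), 86 higher (0.906%) and 65 lower (0.684%), and KO replicate 2 for 2018 genes (21.2%), 924 higher (9.73%) and 1094 lower (11.5%). When each KO library was set against a different WT library, so that the differences shared no library, Pearson's r over the 9497 genes was 0.067 for one pairing and 0.078 for the other, and the signs matched for 48.9% and 50.7% of genes. Genes are not independent replicates, and the r is a description only. In those pairings 36 and 64 genes were at least 2-fold higher in both differences, 16 and 26 were at least 2-fold lower in both, and 18 and 31 were 2-fold apart in opposite directions.

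A core of 41 genes (0.432%) had each of the 4 ratios of a KO library to a WT library at 2-fold or more, 29 higher (0.305%) and 12 lower (0.126%). The 29 included WNT1, HERC3, ADAMTS8, REX1BD, PAX7, LHFPL6, GUCY1A1, RDH10, DPY19L1, PLEKHA4, LMX1B, LGR4, RSPO3, EPHA7, MMRN1, TRAF2, B3GLCT, ARHGEF26, FADD, TST, CLDN1, GUCY1B1, ALCAM, LRFN1, CNTN4, PRKCB, OSBPL6 and BICRA. The 12 were RSPO2, DUSP6, MXRA5, SULT1B1, NID2, GAS7, CXCL14, ATXN7L2, LINC01521, CCN2, NOL4L and LINC01232. This rule was chosen after the values were seen, because it lets neither KO library carry a gene alone.

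**Figure D2:**
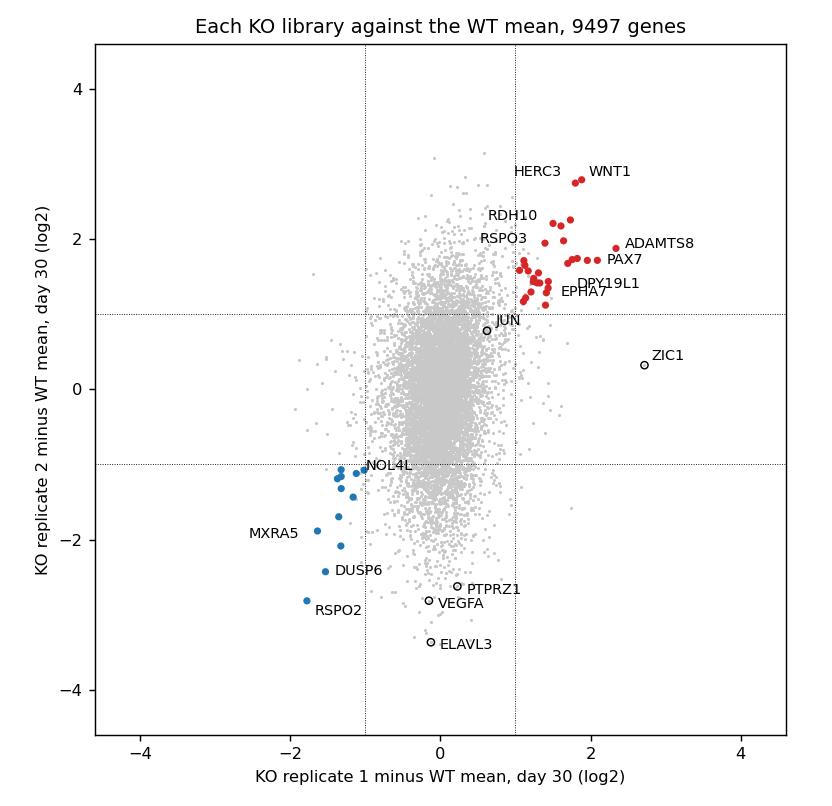
Difference of each KO library from the WT mean (log2), KO replicate 1 on the horizontal and KO replicate 2 on the vertical axis, 1 grey point per gene; red and blue points are the 29 and 12 genes whose 4 ratios were all at least 2-fold, open circles are other named genes, and dotted lines mark 2-fold. The cloud is tall and narrow because KO replicate 2 differed from WT for far more genes, and both axes share the WT libraries.

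The largest increases included a WNT ligand, a dorsal patterning factor and a retinoid enzyme, among genes of other kinds. WNT1, a ligand of the dorsal midline and of the border of midbrain and hindbrain, had values of 38 and 36 in WT and 139 and 262 in KO. The KO libraries lay apart from WT by 2.34 ± 0.55 (log2, SE; limma adjusted p = 0.643, as for all genes of this paragraph other than DPY19L1). HERC3, a ubiquitin ligase, was at 20 in both WT libraries and at 72 and 140 in KO. PAX7, a homeobox factor of the dorsal neural tube, was at 52 and 28 in WT and at 166 and 128 in KO (1.90 ± 0.54). RDH10, which makes retinaldehyde in retinoic acid synthesis, was at 144 and 76 in WT and at 298 and 488 in KO (1.86 ± 0.45). DPY19L1, a C-mannosyltransferase, was at 176 and 143 in WT and at 619 and 524 in KO (1.84 ± 0.26, adjusted p = 0.171). For these 5 genes the lowest KO value was over 2 times the highest WT value. The secreted metalloprotease ADAMTS8 rested on unequal WT libraries, 83 and 26, against 240 and 174 in KO (2.11 ± 0.61). REX1BD went from 20 and 22 to 72 and 104, PLEKHA4 from 58 and 28 to 128 and 162, and GUCY1A1, a subunit of the nitric oxide receptor guanylate cyclase, from 28 and 34 to 96 and 143. DBR1, the debranching enzyme of intron lariats, was the exception among the 10: it was at 17 and 11 in WT, 21 in KO replicate 1 and 129 in KO replicate 2, so only the second KO library stood well apart.

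The largest decreases were more uneven between the KO libraries. RSPO2, a secreted agonist of WNT signalling, had values of 328 and 455 in WT and 112 and 54 in KO, which placed KO lower by more than 2-fold in every pair of libraries (-2.30 ± 0.67, log2, SE; limma adjusted p = 0.643, as for all genes of this paragraph). DUSP6, a phosphatase that ERK signalling induces and that switches ERK off, was at 113 and 122 in WT and at 40 and 21 in KO (-1.98 ± 0.59). MXRA5, a secreted matrix protein, was at 211 and 180 in WT and at 62 and 52 in KO (-1.76 ± 0.37). SULT1B1, a sulfotransferase, was at 206 and 208 in WT and at 82 and 48 in KO. In these 4 genes both KO libraries were at least 2-fold below both WT libraries, and KO replicate 2 was the lower of the KO libraries. In 4 others of the 10, KO replicate 2 made most of the difference. HSPG2, the heparan sulfate proteoglycan perlecan, was at 176 and 156 in WT, 130 in KO replicate 1 and 16 in KO replicate 2. ELAVL3, a neuronal RNA-binding protein, was at 275 and 260, then 245 and 25. GSTA4 was at 230 and 206, then 190 and 22, and LYRM2 at 173 and 216, then 168 and 20. TIMP3, an inhibitor of metalloproteases, and DPCD lay between these patterns, TIMP3 at 152 and 120 in WT and at 78 and 19 in KO, and DPCD at 138 and 130 in WT and at 70 and 20 in KO.

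**Figure D3:**
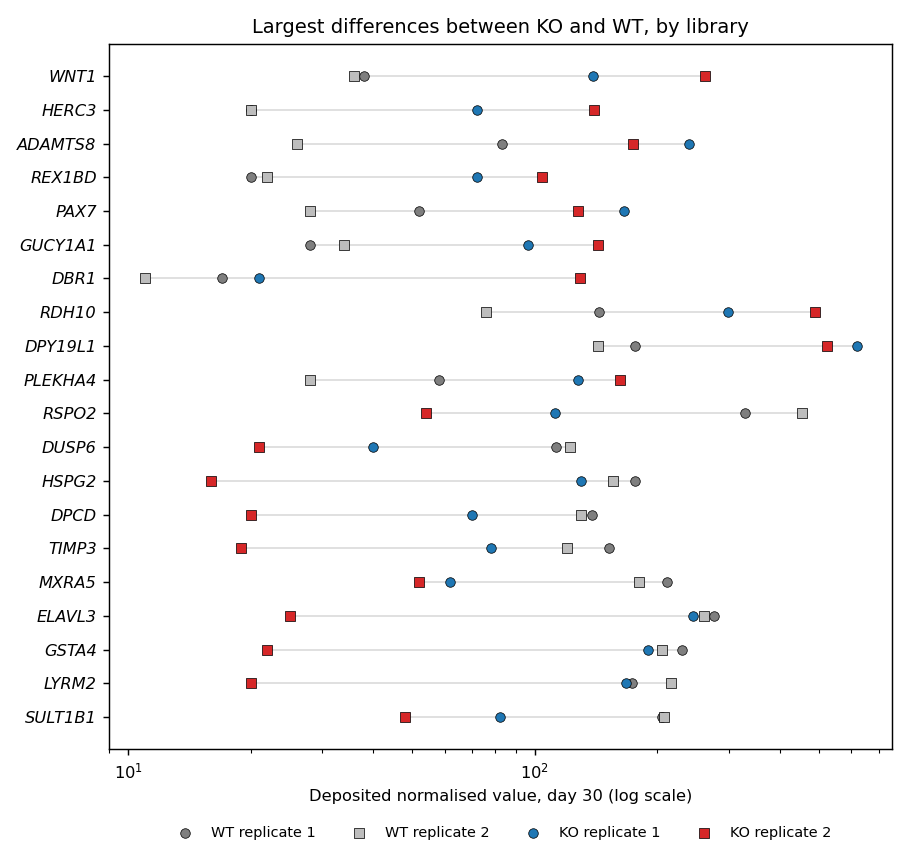
Deposited value (log scale) in the 4 day 30 libraries for the 10 largest increases (upper rows) and 10 largest decreases (lower rows) between KO and WT; grey symbols are WT, the blue circle KO replicate 1 and the red square KO replicate 2. In DBR1, HSPG2, ELAVL3, GSTA4 and LYRM2 the blue circle lies beside the grey symbols.

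Among roof plate and dorsal midline genes, those that stood apart were mostly higher in KO. Of 24 analysed genes of this list (29 in the list), 7 were at least 2-fold higher with no overlap between libraries, which is 29.2% against 1.61% of all genes, and 3 were lower (12.5% against 1.7%). The list was chosen with earlier results of these data known, and 4 of its genes, WNT8B, RSPO2, MSX1 and LMX1B, were ones that the study had listed from its day 25 libraries, so the count is no independent evidence of a direction. The median difference was 0.69 on the log2 scale, 0.32 for KO replicate 1 and 0.70 for KO replicate 2, with the median of all genes at 0 to 2 decimals. The WT libraries were themselves unequal for several of these genes. WT replicate 2 was the lower for PAX7 (52 and 28), LMX1B (160 and 76), MSX1 (200 and 112) and RSPO3 (168 and 112). WNT1 was nearly equal (38 and 36), and ZIC1 (1412 and 1604) and RSPO2 (328 and 455) were higher in WT replicate 2. The part of this WT variation in the differences was not tested. Fewer cells of a type and less RNA per cell cannot be told apart in such pooled tissue.

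Among the transcription factors of the list, LMX1B, which specifies the roof plate, was at 160 and 76 in WT and at 375 and 368 in KO (1.74 ± 0.57, log2, SE; limma adjusted p = 0.643). Its paralogue LMX1A was at 208 and 178 in WT and at 285 and 538 in KO. MSX1, a target of BMP signalling, was at 200 and 112 in WT and at 310 and 528 in KO. All of these had both KO libraries above both WT libraries. PAX3, related to PAX7, was at 310 and 214 in WT and at 626 and 417 in KO (0.99 ± 0.34). PAX7 and PAX3 were also on the list of pretectum markers, and LMX1A on that of midbrain markers. These genes are therefore not particular to the roof plate. ZIC1, a zinc finger factor of the dorsal neural tube, differed between the KO libraries: it was at 1412 and 1604 in WT, at 9910 in KO replicate 1 and at 1882 in KO replicate 2. The value of 9910 is the ceiling of the deposited scale, shared by 9 genes in that library. Its relatives ZIC2, ZIC4 and ZIC5 showed no such shift in KO replicate 1, where ZIC4 was at 564 against 564 and 548 in WT. MAF, a leucine zipper factor, lay the other way, at 281 and 240 in WT and at 130 and 112 in KO (-1.10).

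Among the secreted signals, the R-spondins split. RSPO3 was at 168 and 112 in WT and at 362 and 532 in KO (1.67 ± 0.36, log2, SE; limma adjusted p = 0.643), and RSPO1 at 93 and 88 in WT and at 165 and 160 in KO (0.84). RSPO2 was lower, as given above, although all 3 R-spondins act through LGR receptors to strengthen WNT signalling. The WNT ligands split as well: WNT8B was at 44 and 65 in WT and at 27 and 20 in KO (-1.17), opposite to WNT1. BAMBI, a decoy receptor for BMP ligands that BMP signalling induces, was at 124 and 85 in WT and at 203 and 208 in KO (0.99). BMP7 and GDF7, BMP ligands of the roof plate, overlapped between the groups, with BMP7 at 314 and 213 in WT and at 158 and 504 in KO. Of the members named in this and the preceding paragraph, ZIC2, ZIC5, MAF, RSPO3, RSPO1, BMP7 and GDF7 were chosen after their values were seen.

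**Figure D4:**
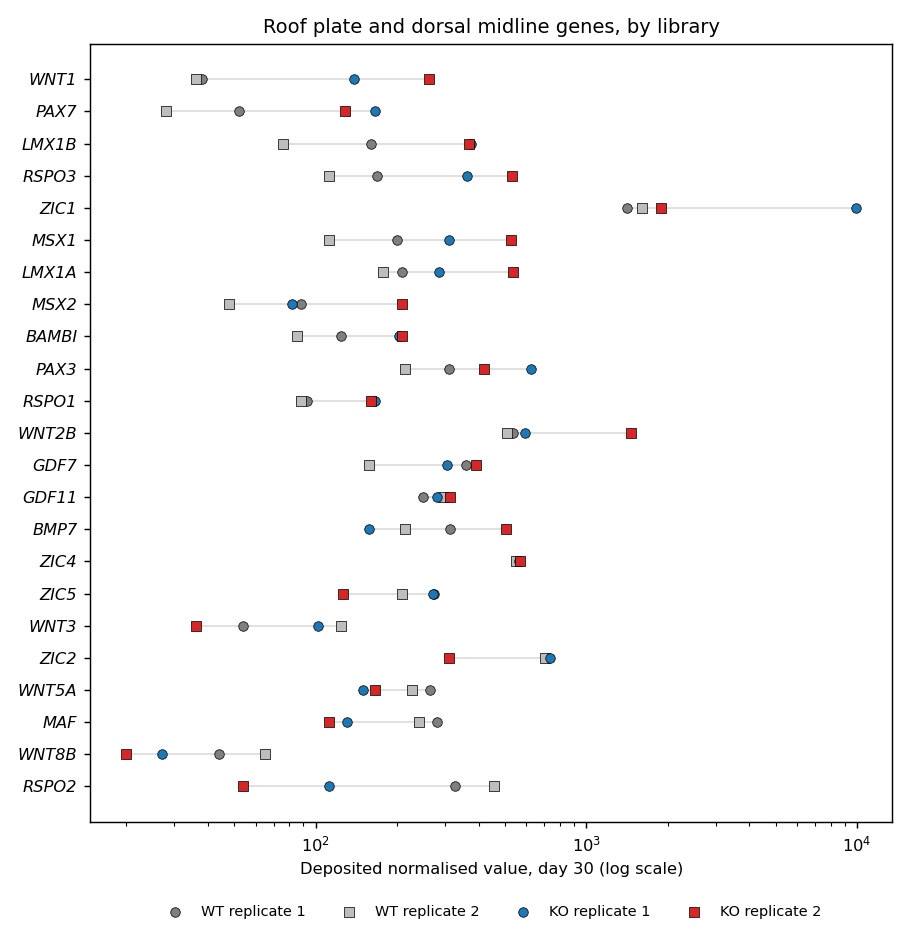
Deposited value (log scale) in the 4 day 30 libraries for 23 of the 24 analysed roof plate and dorsal midline genes, ordered by the difference between KO and WT; grey symbols are WT, the blue circle KO replicate 1 and the red square KO replicate 2. WNT1, PAX7, LMX1B and RSPO3 at the top and RSPO2 at the bottom have both KO symbols on one side of both WT symbols, and ZIC1 reaches 9910 in KO replicate 1 only.

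The WNT pathway list, these ligands included, had a median difference of -0.04 over 57 analysed genes of 80, with 25 above 0 and 32 below. By role, the median was 0.13 for 14 receptors, -0.11 for 5 secreted inhibitors and -0.05 for 25 intracellular components and targets. Among its receptors and inhibitors, 3 stood at least 2-fold apart with no overlap. LGR4, an R-spondin receptor, was at 127 and 103 in WT and at 373 and 368 in KO (1.69 ± 0.43, log2, SE; limma adjusted p = 0.643), with the KO libraries nearly equal. FZD1, a WNT receptor, was at 278 and 304 in WT and at 163 and 114 in KO, and DRAXIN, a secreted inhibitor that also guides axons, at 415 and 446 in WT and at 366 and 114 in KO. CTNNB1, which encodes beta-catenin, was at 2670 and 3449 in WT and at 3449 and 3454 in KO. CCND1, a cyclin and a common target of WNT, ERK and AP-1 signals, was at 806 and 850 in WT and at 532 and 403 in KO (-0.84 ± 0.23, adjusted p = 0.643). Of the 57, 3 were higher by the fold and overlap rule (WNT1, RSPO3 and LGR4, 5.26% against 1.61% of all genes) and 4 lower (WNT8B, RSPO2, FZD1 and DRAXIN, 7.02% against 1.7%).

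In the FGF and ERK list, 22 of 37 genes were analysed, and 3 were at least 2-fold lower in KO with no overlap (13.6%, against 1.7% of all genes) and none higher (1.61% of all genes). All 3 encode inhibitors that ERK signalling induces as feedback. They were DUSP6, SPRY1, at 184 and 229 in WT and at 98 and 52 in KO (-1.51 ± 0.36, log2, SE; limma adjusted p = 0.643), and IL17RD, at 708 and 788 in WT and at 354 and 345 in KO (-1.09 ± 0.24, adjusted p = 0.643). Other feedback genes did not follow them in both libraries: SPRY4 was at 57 and 74 in WT and at 22 and 88 in KO, and DUSP4 at 268 and 320 in WT and at 163 and 580 in KO. The ligands and receptors of the list had a median difference of -0.03, and FGFR1 was at 348 and 346 in WT and at 342 and 278 in KO. A MEK inhibitor was part of the patterning medium of both groups, but was not listed for the medium that followed it. The 35 analysed genes of the BMP and TGF-beta list held none at least 2-fold apart with no overlap, and the same was true of 23 Notch, 12 hedgehog and 27 JNK pathway genes. The share of all genes was 3.31% in either direction, so in lists of this size a count of 0 lies close to the background.

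Adhesion genes at least 2-fold apart with no overlap were higher in KO. Of 81 analysed cell adhesion genes of 107, 8 were higher by that rule (9.88%, against 1.61% of all genes). None was lower (1.7% of all genes), although the median of the list was -0.03. At any fold, 16 had both KO libraries above both WT libraries and 16 had both below (16.5% and 17.4% of all genes). CDH6, a cadherin of thalamic and other brain nuclei, was at 272 and 132 in WT and at 466 and 640 in KO. ALCAM, an immunoglobulin adhesion molecule of growing axons, was at 176 and 186 in WT and at 428 and 491 in KO (1.34 ± 0.26, log2, SE; limma adjusted p = 0.643). CLDN1, a tight junction protein that also marks choroid plexus epithelium, was at 168 and 146 in WT and at 372 and 438 in KO (1.36 ± 0.50). PCDH1, CNTN1, CNTN4, LRFN1 and JAM2 made up the 8.

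Few axon guidance and matrix genes stood apart, and those lay on both sides of WT. EPHA7, a receptor for ephrins, was at 1084 and 898 in WT and at 2674 and 2672 in KO (1.44 ± 0.47, log2, SE; limma adjusted p = 0.643). SLIT1, a repellent of growing axons, was at 158 and 206 in WT and at 86 and 36 in KO (-1.68 ± 0.44). NTNG2, a membrane-bound netrin, was at 82 and 78 in WT and at 154 and 345 in KO. Of 58 analysed guidance genes, 2 were higher (3.45%, against 1.61% of all genes) and 3 lower (5.17% against 1.7%) by the fold and overlap rule, the third lower gene beside SLIT1 and DRAXIN being UNC5C. In the matrix list, 2 of 40 were higher (5% against 1.61%), COL2A1 and MATN2, and 3 lower (7.5% against 1.7%), MXRA5, NID2 and TNC. NID2, a nidogen of the basement membrane, was at 164 and 106 in WT and at 51 and 40 in KO, and TNC, a matrix glycoprotein of radial glia, at 102 and 139 in WT and at 51 and 34 in KO. COL2A1 was at 152 and 102 in WT and at 285 and 331 in KO.

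Genes listed as thalamus markers did not move together. Not all of them are particular to the thalamus, since ZIC1 was also on the roof plate list. Of 27 listed genes 17 were analysed, and their median difference was -0.10, with 0.15 in KO replicate 1 and -0.59 in KO replicate 2. TCF7L2, a transcription factor of thalamic neurons, was at 148 and 246 in WT, at 341 in KO replicate 1 and at 109 in KO replicate 2, so the WT values lay between the KO values. LHX9, a LIM homeobox factor of early thalamic neurons, was at 309 and 330 in WT and at 297 and 118 in KO. SLC17A6, the vesicular glutamate transporter of thalamic neurons, was at 148 and 142 in WT and at 108 and 96 in KO (-0.51 ± 0.37, log2, SE; limma adjusted p = 0.674). NTNG1 was at 42 and 44 in WT and at 38 and 93 in KO. CDH6 and ZIC1 were the only members at least 2-fold apart with no overlap, both higher (11.8%, against 1.61% of all genes). ZIC1 was so mainly through the ceiling value of 9910 in KO replicate 1, since KO replicate 2 was at 1882. NEUROG1, HES1, LEF1, ZIC4, EBF1, SOX2, CNTN2, SHOX2, RELN and ID4 gave differences between -0.45 and 0.08. GBX2, OLIG3, LHX2 and FOXP2, which also define the thalamus, were not analysed here.

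The pan-neuronal cytoskeleton genes TUBB3 and MAP2 sat in the stepped upper part of the scale, which cannot show a small change: TUBB3 was at 1466 in both WT libraries and at 1604 and 1608 in KO, and MAP2 at 3456 in all 4 libraries. The progenitor genes NES and PAX6 overlapped between the groups, with NES at 1082 and 1330 in WT and 1259 and 1130 in KO. PAX6 was at 572 and 538 in WT and at 572 and 382 in KO. Of 31 analysed radial glia markers, 1 was higher, RFX4 (3.23%, against 1.61% of all genes), and 2 lower, TNC and SOX3 (6.45% against 1.7%), by the fold and overlap rule. Of 78 analysed cell cycle genes none was (3.31% of all genes in either direction), and their median was -0.18, with -0.01 in KO replicate 1 and -0.37 in KO replicate 2.

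Markers of other cell types were checked in the same libraries. Of 36 choroid plexus markers 23 were analysed, with a median difference of 0.16 and 15 of 23 above 0 (4707 of all 9497 genes were). By the fold and overlap rule 1 was higher, CLDN1, and 1 lower, CLIC6 (4.35% each, against 1.61% and 1.7% of all genes). Their summed value was 10105 and 6162 in WT and 8409 and 7453 in KO. Such sums are weighted to the members with the highest values. TTR, the transthyretin gene of that epithelium, overlapped, at 3452 and 1739 in WT and at 2672 and 638 in KO, so WT replicate 2 was the lower WT library. CLIC6, another of its markers, was at 222 and 160 in WT and at 92 and 78 in KO, whereas PLTP, a lipid transfer protein, was at 384 and 190 in WT and at 508 and 530 in KO. Of 21 mesenchyme and neural crest markers 4 were analysed, with summed values of 474 and 353 in WT and 517 and 622 in KO. Of 11 endothelial and microglial markers 2 were analysed, with sums of 163 and 113 in WT and 118 and 265 in KO. They differed: the leukocyte gene PTPRC was at 65 and 37 in WT and at 50 and 214 in KO, and the endothelial CLDN5 at 98 and 76 in WT and at 68 and 51 in KO. Of 17 telencephalon markers 2 were analysed and of 19 midbrain and hindbrain markers 3, while the 21 prethalamus and hypothalamus markers were not analysed here. The part of these cell types in the differences was not tested.

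The AP-1 family itself, 16 of 28 genes analysed, had a median difference of 0.14 and no member at least 2-fold apart with no overlap. The share of all genes was 3.31% in either direction, so this count lies close to the background. JUND, which can replace c-JUN in AP-1, was at 232 and 226 in WT and at 284 and 295 in KO (0.34 ± 0.21, log2, SE; limma adjusted p = 0.646). ATF3, a stress-induced partner, was at 36 and 37 in WT and at 68 and 26 in KO. CREB1 was at 175 and 180 in WT, at 198 in KO replicate 1 and at 24 in KO replicate 2, and ATF1, a close relative, at 40 and 36 in WT and at 50 and 110 in KO. MAFG, a small MAF protein, was at 74 and 101 in WT and at 45 and 60 in KO (-0.72 ± 0.29, adjusted p = 0.643). ATF2, ATF4, ATF6, ATF7, CREB3, CREB5, BACH1, BACH2, NFE2L1 and NFE2L2 gave differences between -0.57 and 0.82. Of FOS proteins none was analysed here. Of genes known as AP-1 targets, 16 of 27 analysed, the median was -0.22, and 12 of the 16 differences were below 0 (4785 of all 9497 genes were). KO replicate 1 lay above the WT mean for 5 of the 16 and KO replicate 2 for 7. By the fold and overlap rule TIMP3 and VEGFA were lower (12.5% against 1.7% of all genes) and NQO1, a redox enzyme, was higher (6.25% against 1.61%), at 115 and 83 in WT and at 120 and 342 in KO. VIM was at 3452 or 3456 in all 4 libraries, on the step below the ceiling, and the core gene CCN2 (connective tissue growth factor), which was not on that list, at 50 and 53 in WT and at 20 and 24 in KO.

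The genes PTPRZ1 and SLC2A1, both examined by the study, showed how far a mean of the KO libraries depended on replicate 2. PTPRZ1, a receptor phosphatase of radial glia, was at 722 and 1608 in WT, at 1261 in KO replicate 1 and at 174 in KO replicate 2. SLC2A1, the glucose transporter GLUT1, was at 720 and 849, then 804 and 168. KO replicate 1 lay between the WT values for both genes. CYP1B1, which oxidises retinoids and steroids, was at 709 and 232 in WT and at 787 and 2394 in KO (1.76 ± 0.78, log2, SE; limma adjusted p = 0.643). SEMA6A was at 349 and 326 in WT and at 314 and 318 in KO, and DCC at 354 and 476 in WT and at 293 and 444 in KO.

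Several lists of metabolic genes had lower medians in KO replicate 2 than in KO replicate 1. The 40 analysed glycolysis and hypoxia genes of 51 had a median of -0.72 in KO replicate 2 and 0.19 in KO replicate 1, and 15 of the 40 were at least 2-fold below the WT mean in KO replicate 2 (11.5% of all genes were) and none in KO replicate 1. VEGFA, an angiogenic factor induced by hypoxia, was at 432 and 424 in WT, 385 in KO replicate 1 and 60 in KO replicate 2. PFKFB3, a regulator of glycolysis, was at 184 and 197, then 172 and 32. GAPDH was at 2396 to 2400, which is 1 step of the scale, so a small change in it cannot be seen. The 31 analysed cholesterol synthesis genes had medians of 0.02 and -0.60 in KO replicates 1 and 2, and the 76 ribosomal protein genes -0.02 and -0.40. For oxidative phosphorylation, with 66 of 89 genes analysed, the medians were 0.10 and -0.03. Since these shifts came from 1 library, they have no replicate.

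**Figure D5:**
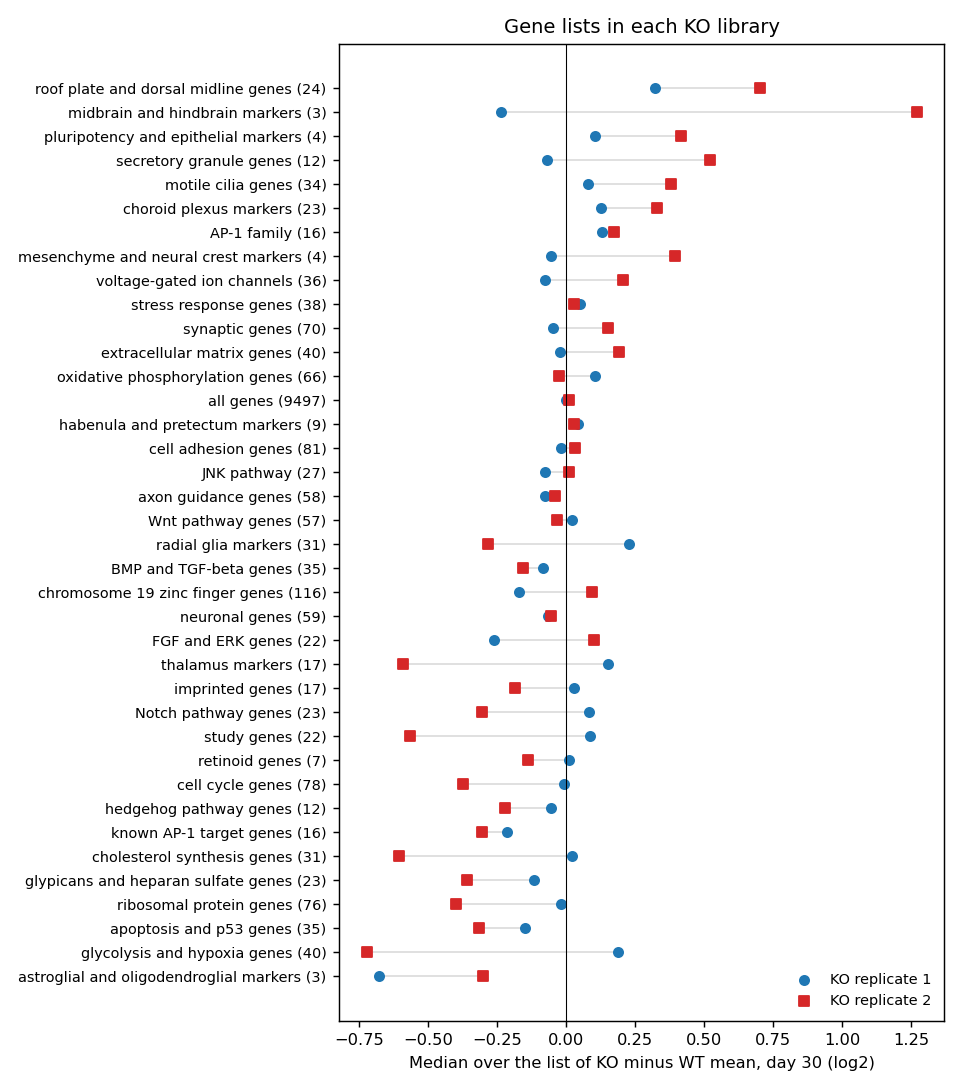
Median over each gene list of the difference from the WT mean (log2) for KO replicate 1 (blue circles) and KO replicate 2 (red squares), with the number of analysed genes in brackets, for lists of at least 3 analysed genes. The roof plate list has both symbols above 0.3, and the glycolysis and hypoxia list has 0.19 and -0.72.

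Genes that parted the KO libraries most were named by the size of the difference between them. The 5 highest in KO replicate 2 against replicate 1 were TMEM182, ANO2, CCDC24, FYB2 and ZNF8-DT, and ANO2, a calcium-activated chloride channel, was at 28 and 25 in WT, 25 in KO replicate 1 and 231 in KO replicate 2. The 5 lowest were PCGF2, YES1, CNDP2, ATP1B2 and TFAP2B. PCGF2, a polycomb group protein, was at 153 and 112 in WT, then 173 and 12. TFAP2B, a factor of neural crest and dorsal interneurons, was at 54 and 70 in WT, 208 in KO replicate 1 and 20 in KO replicate 2, so that the KO libraries lay on either side of WT.

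The day 30 difference was then set beside that of day 25, which shares no library with it. Of 504 genes at least 2-fold apart at an unadjusted p under 0.05 at day 25, 366 had the same direction at day 30 (72.6%, with a median of 0.32 on the log2 scale in that direction), against 59.5% of all genes. KO replicate 1 alone gave 326 of the 504 (64.7%, median 0.14), and KO replicate 2 gave 357 (70.8%, median 0.47). The 59.5% is for the mean of both KO libraries, and no share of all genes was computed for a single KO library. Of the 41 core genes of day 30, 36 had the same direction at day 25 (87.8%, median 0.94). RSPO2 gave a difference of -4.17 (log2) at day 25 and -2.30 at day 30, MXRA5 gave -2.33 and -1.76, and DUSP6 gave -1.50 and -1.98. LMX1B gave 1.87 and 1.74, and PLEKHA4 gave 1.94 and 1.81. The study had listed RSPO2, MXRA5 and LMX1B from its day 25 libraries, so their size at day 25 is no independent evidence. Other core genes had small mean differences at day 25: EPHA7 gave 0.03 at day 25 and 1.44 at day 30, LHFPL6 -0.41 and 1.78, and REX1BD -0.15 and 1.99. In each of them the KO libraries of day 25 lay on either side of the WT libraries. EPHA7 was at 2094 and 1132 in WT and at 2674 and 926 in KO of that day. LHFPL6 was at 36 and 40, then 56 and 14, and REX1BD at 42 and 44, then 55 and 27. TST and CCN2 had opposite signs, -1.23 against 1.37 and 0.92 against -1.20. The difference between the days was tested in the limma fit, and 0 of 9497 genes passed an adjusted p under 0.05. At an unadjusted p under 0.05 there were 535 (5.63%), among them REX1BD, PLAGL1 and SEMA6A (limma adjusted p = 0.802 for each). PLAGL1 and SEMA6A, both examined by the study, were lower in KO mainly at day 25. PLAGL1 gave -2.55 at day 25 and -0.40 at day 30, and SEMA6A gave -1.47 and -0.09.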

How the data were processed

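The authors deposited 1 table per library (total RNA from 3 pooled ThOs) with a whole-number expression score per gene that looks quantile-normalised. The submitters' notes name bcl2fastq, Bowtie2, RSEM and hg19 with no roles, and how the values were normalised is not given in the sources used here. The tables' positions are on GRCh38: all 9384 symbols matched to RefSeq GRCh38.p14 overlapped them. Scores keep no depth, were not compared between genes (sums over markers only describe libraries) and were not given a count model. At the ceiling of the scale sit 8 to 10 genes a library.

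After a log2(value + 1) step, limma 3.58.1 (R 4.3.3) was fitted with 1 mean for each of 6 groups of 2 libraries, an intensity trend, 6 residual degrees of freedom and Benjamini-Hochberg adjustment over 9497 genes. Fold changes understate low genes. A filter (value of at least 1 in 2 libraries) removed 0 genes. The fit was tested on simulated data. The 11 ATAC-seq and CUT&Tag samples were not analysed here, and some genes that count in the totals are not reported here. Named genes were JUN, the 10 largest increases and decreases at an unadjusted p under 0.05 and 2-fold with no overlap, the 5 per direction that parted the KO libraries most, the AP-1, thalamus and study genes, and up to 4 per other list. Others, the 41 core genes among them, were picked once their values had been seen. The members and lists were chosen with earlier results of these data known. Other pseudocounts, filters, scalings, designs and left-out libraries were tried.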

Additional observations from a re-analysis of the deposited data

How the results depend on the processing

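No gene was called between KO and WT under the 11 alternatives that kept all 4 libraries, and leaving out 1 library gave 0 to 1078 (1078 without KO replicate 1, 1 without KO replicate 2, 0 without either WT library), where the lone library was assumed to vary like the other groups. For the difference between days the range was 0 to 189, with 189 without KO replicate 1. At unadjusted p and 2-fold, the 134 higher and 145 lower genes became 52 to 779 and 37 to 1020 with a library left out (69 and 43 without WT replicate 2, 52 and 37 without KO replicate 2, 779 and 1020 without KO replicate 1), 88 and 57 with only the 4 libraries fitted, 85 lower with only day 30, 86 higher at a mean value of at least 50, and 305 and 330 at 1.5-fold. The 153 higher and 161 lower genes with no overlap became 86 to 924 and 65 to 1094 with a library left out (347 and 284 without WT replicate 1), 609 and 612 at 1.5-fold, and 92 higher at a mean of at least 50. The 151 genes of KO replicate 1 were 98 at a mean of at least 50 and 308 against WT replicate 2 alone. The 29 and 12 core genes became 50 to 650 and 17 to 906 with a library left out, 19 higher at a mean of at least 50, and 6 lower with a pseudocount of 5. The cause of these changes was not tested, beyond fewer libraries or genes entering.

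JUN ranged from 0.53 to 0.87 (log2) under 15 alternatives. Those that kept all 4 libraries gave a limma adjusted p from 0.631 to 0.93. Both KO libraries lay above both WT libraries, so leaving out 1 library could not turn the sign of JUN. The sign turned for 9 of the genes that the study examined when 1 library was left out: PLAGL1 ranged from -1.06 to 0.27, TCF7L2 from -0.80 to 0.83, DCC from -0.49 to 0.11, NES from -0.16 to 0.14, CNTN2 from -0.59 to 0.41, PAX6 from -0.54 to 0.044, TJP1 from -0.17 to 0.10, PTPRZ1 from -2.62 to 0.23 and SLC2A1 from -2.21 to 0.040. The median of the roof plate list was 0.69 with all libraries and 0.32 without KO replicate 2.

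The replicate numbers did not pair the libraries (correlation of deviations for WT and KO of day 30, -0.02). With a replicate block, 0 genes were called and 132 and 144 passed the unadjusted rule, and no other call changed. The depth is unknown, so what it limits could not be judged.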

Other observations

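Some of the 41 core genes lay close together in the genome, a feature the rule did not use. GUCY1A1 and GUCY1B1, which encode the paired subunits of soluble guanylate cyclase, lie 21933 bases apart on GRCh38 chromosome 4 (155666726 to 155737059 and 155758992 to 155807811) and were both higher in KO. GUCY1B1 had values of 80 and 64 in WT and 192 and 176 in KO.

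Few synaptic and ion channel genes stood apart. Of 70 analysed synaptic genes, 3 were at least 2-fold higher with no overlap (4.29%, against 1.61% of all genes) and none lower (1.7% of all genes): AMPH, SV2C and CADPS2. AMPH, an endocytic protein, was at 60 and 84 in WT and at 156 and 172 in KO, and SV2C, a vesicle protein, at 45 and 35 in WT and at 70 and 115 in KO. SYT4, a synaptotagmin, lay the other way at a smaller fold, at 2400 and 2094 in WT and at 1412 and 1326 in KO (-0.71 ± 0.21, log2, SE; limma adjusted p = 0.643). Of 36 voltage-gated channels, 1 was higher (2.78% against 1.61%), CACNA1A, at 30 in both WT libraries and at 51 and 134 in KO. Of 12 secretory granule genes, PCSK1N and CADPS2 were higher by the same rule (16.7% against 1.61%) and none lower (1.7% of all genes). CADPS2 was already counted among the synaptic genes. In the heat shock and redox genes, HSPA1B was at 274 and 220 in WT and at 435 and 847 in KO, but it is nearly identical to HSPA1A and its reads can be split between the copies.

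By chromosome, the median difference of KO replicate 2 from the WT mean was lowest for chromosome 20, at -0.28 over 255 genes, and highest for chromosome 12, at 0.12. For KO replicate 1 the medians ran from -0.05 (chromosome 21) to 0.04 (chromosome 20). Between the replicates of the other groups the medians by chromosome stayed between -0.11 and 0.12.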
